A study of Homo sapiens with 12 samples.

Results

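The genes described here are 10 brakes of the cell cycle in human fibroblasts, taken by name from a table of 60671 genes. They are the CIP/KIP inhibitors CDKN1A, CDKN1B and CDKN1C, the INK4 inhibitors CDKN2A, CDKN2B, CDKN2C and CDKN2D, and the retinoblastoma family members RB1, RBL1 and RBL2. Poly(A) RNA was sequenced from BJ-5ta cells, a foreskin fibroblast line immortalized with telomerase (hTERT), so that all groups carry telomerase. The 4 groups were wild type in 10% serum, wild type after 10 days in 0.1% serum, ΔLEO1 in 10% serum and ΔLEO1 after 10 days in 0.1% serum, with 3 libraries each. ΔLEO1 is a single clone, made with CRISPR plasmids against exons 1 and 2 of LEO1, a subunit of the RNA polymerase II-associated factor 1 complex. The comparisons ask how RNA of the 10 genes differed between the serum levels in each genotype, and between the genotypes at each serum level. The labels do not state separate cultures for the 3 libraries of a group, and p-values measure only the spread between these libraries.

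As background, a cell enters S phase when cyclin-dependent kinases (CDKs) phosphorylate the retinoblastoma proteins, which then release E2F transcription factors and their target genes. INK4 proteins bind CDK4 and CDK6 and block D cyclin kinases, whereas CIP/KIP proteins bind whole cyclin-CDK complexes, above all those of CDK2. In quiescent cells RBL2 joins E2F4 and the MuvB core in the DREAM complex, which represses cell cycle genes, and many of these inhibitors are also set by protein stability, which RNA does not show.

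The libraries held 26240632 to 45315560 gene counts, and the ERCC transcripts, synthetic RNAs added to each RNA sample, made up 0.625% to 3.24% of all counts. Each count was divided by the effective ERCC total of its library, and the result, scaled to 1000000, is called the ERCC-scaled count. The ERCC share was 1.88%, 3.24% and 1.09% in libraries 10, 11 and 12, which are ΔLEO1 in 0.1% serum. There the median gene lay −0.52, −1.28 and 0.39 log2 units from its mean over the 12 libraries. Shifts of ERCC-scaled results without 1 of these libraries can thus be shared by many genes. LEO1 had 682 to 1001 counts in wild-type and 23 to 55 in ΔLEO1 libraries. All 10 fibroblast markers were detected, at 68689 to 99707 counts per 1000000 gene counts (CPM) in sum. Endothelial markers summed to 0.309 to 0.987 CPM, muscle markers to 0.0299 to 9.14 CPM with MYOD1 and ACTN2 at 0, and epithelial markers to 24.1 to 80.0 CPM with KRT8 alone past the filter. Blood cell markers summed to 0.823 to 1.91 CPM in wild-type and 1.85 to 7.88 CPM in ΔLEO1 libraries, and their part in any result was not tested. The highest-numbered library of each group, numbers 3, 6, 9 and 12, stood apart. Pairs within a group that held it had a chi-square per gene of 66.2 to 144, against 3.04 to 12.1 for the other pairs. Results on ERCC-scaled counts whose call changes without these 4 libraries are therefore given with and without them. On the TMM scale, defined below, this is done for part of the results only. Without these 4 libraries only the pairs with a chi-square per gene of 3.04 to 12.1 remain. The p-values of such fits therefore rest on a smaller spread between libraries, and the share of all genes called in them is not given.

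The groups were compared in edgeR with a likelihood ratio test over all 12 libraries and 13236 genes, which included all 10 brakes. An edgeR adjusted p is the Benjamini-Hochberg value of this test over all 13236 genes, and a gene was called when it was under 0.05. On the ERCC scale the median log2 fold change of all tested genes was −0.97 in 0.1% against 10% serum in wild type and −1.05 in ΔLEO1. It was 0.35 in ΔLEO1 against wild type in 10% serum and 0.27 in 0.1% serum. Fold changes were therefore also computed relative to the other genes with TMM factors on the gene counts, here called the TMM scale, where each of these medians was at most 0.02. In these bulk samples fewer cells with a transcript and less of it per cell cannot be told apart. The study's methods state neither equal RNA amounts nor equal cell numbers for the added ERCC transcripts. On the ERCC scale such a difference between groups cannot be told apart from a change in RNA per cell.

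Per kilobase of exon, CDKN1A was the most abundant of the 10 in wild type in 10% serum, at 66.8 ± 7.44 CPM per kb (SD, n = 3). CDKN1B followed at 25.4 ± 1.64, CDKN2C at 14.3 ± 3.59, RB1 at 13.7 ± 0.451 and RBL2 at 7.86 ± 0.267 CPM per kb. CDKN2D, CDKN2B, RBL1 and CDKN2A lay between 4.74 and 2.47 CPM per kb, and CDKN1C was lowest at 0.996 ± 0.137. CDKN2C and RB1 overlapped between libraries, as did each neighboring pair from CDKN2D down to CDKN2A, and the other neighbors did not. In ΔLEO1 in 10% serum CDKN1A had dropped to the third place with 13.4 ± 2.16 CPM per kb, behind CDKN1B at 29.9 ± 1.201 and RB1 at 14.95 ± 0.734, and it overlapped with RB1. In 0.1% serum CDKN1A led in wild type with 60.5 ± 12.6 CPM per kb and did not overlap with CDKN1B at 18.7 ± 3.41. In ΔLEO1 its mean was highest too, at 26.4 ± 1.75 CPM per kb, but it overlapped with CDKN1B at 18.1 ± 7.88, which was above it in library 12. The neighbors from CDKN1B down to RBL2 at 8.82 ± 0.984 overlapped as well.

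**Figure D1:**
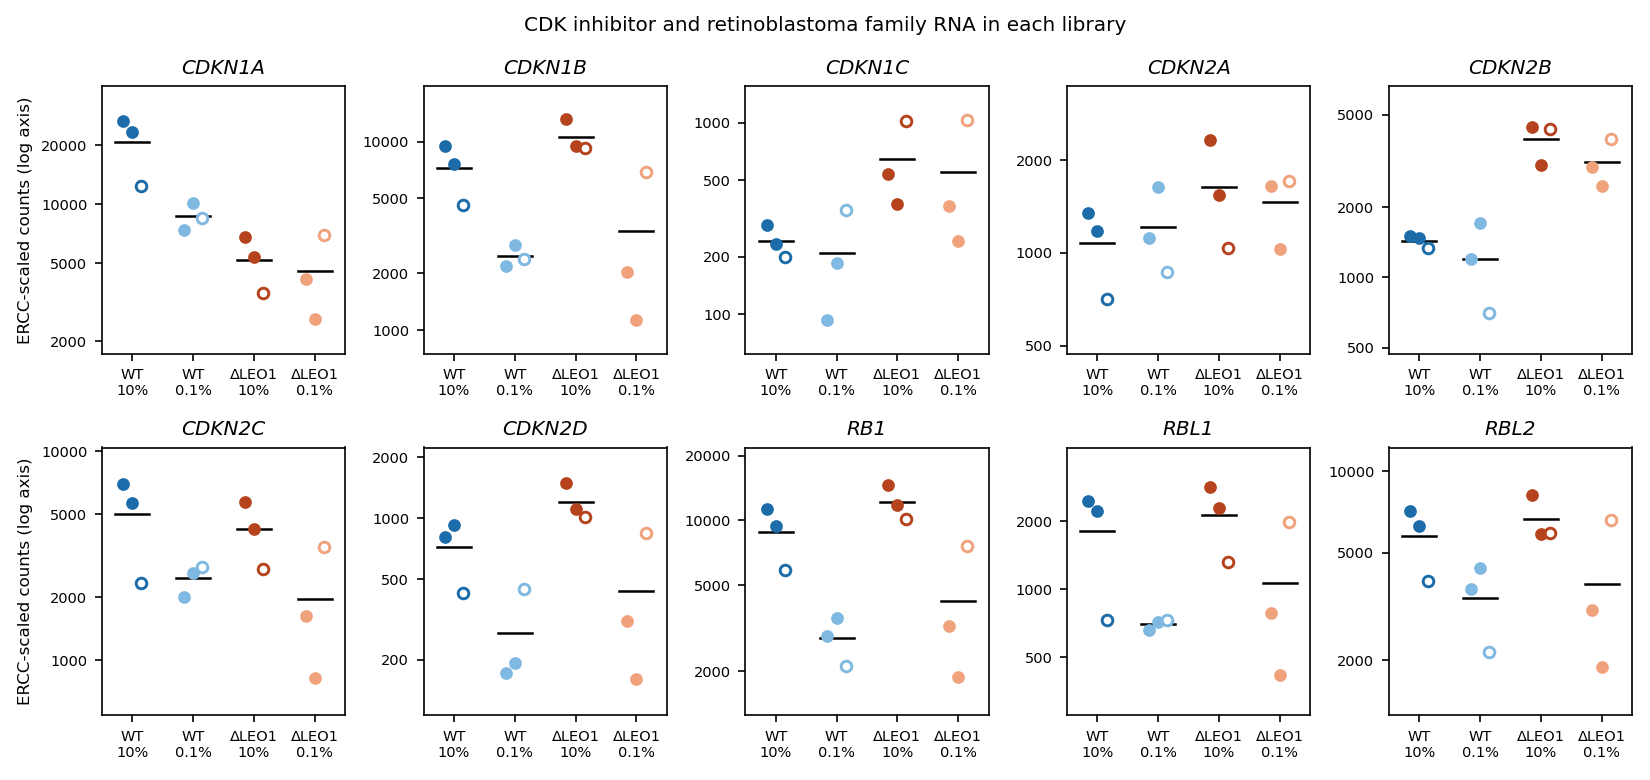
ERCC-scaled counts of the 10 genes in the 12 libraries (log axis), with filled points for the lower-numbered libraries, open points for the highest-numbered library of each group, and a line at the mean of 3. CDKN1A sits between 12370 and 26717 in wild type in 10% serum and between 3513 and 6785 in ΔLEO1, whereas CDKN2B is higher in every ΔLEO1 library than in every wild-type library of the same serum.

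CDKN1A encodes p21, the inhibitor that p53 induces, and lies on chromosome 6 of GRCh38 (chr6:36676460-36687339, plus strand). Its ERCC-scaled counts in wild type were 26717, 23237 and 12370.0 in 10% serum against 7384, 10101 and 8529 in 0.1% serum. In ΔLEO1 they were 6785, 5354 and 3513 in 10% serum and 4129.8, 2594 and 6944 in 0.1% serum. Every wild-type library lay above every ΔLEO1 library of the same serum, and within wild type the serum levels did not overlap. In 10% serum CDKN1A was 3.98-fold lower in ΔLEO1 (log2 fold change −1.99, SE 0.45, edgeR adjusted p = 4.04e-04). Only 3.13% of the tested genes had a lower value in that comparison, and CDKN1A was called with each of the 12 libraries left out in turn (log2 fold changes −2.26 to −1.75). The comparison in 0.1% serum gave a log2 fold change of −0.93 (SE 0.45, edgeR adjusted p = 0.305). Without library 12 it was −1.37 and called (edgeR adjusted p = 0.0140), and without the 4 highest-numbered libraries −1.38 and called (edgeR adjusted p = 0.00191).

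In CPM, which no ERCC value enters, CDKN1A had 212, 221 and 178 in wild type and 42.9, 45.9 and 33.3 in ΔLEO1 in 10% serum. In 0.1% serum it had 158, 167 and 229 in wild type and 78.4, 86.6 and 76.5 in ΔLEO1. On the TMM scale CDKN1A was lower in ΔLEO1 at both serum levels, by a log2 fold change of −2.33 (SE 0.17, edgeR adjusted p = 3.41e-36) in 10% and −1.18 (SE 0.17, edgeR adjusted p = 2.50e-10) in 0.1% serum. Across the serum change, CDKN1A rose relative to the other genes in ΔLEO1 (log2 fold change 0.93, SE 0.17, edgeR adjusted p = 2.10e-06), and its CPM did not overlap between the serum levels. On the ERCC scale the same comparison gave −0.20 (SE 0.45, edgeR adjusted p = 0.690), and without library 4 or 11 it was 0.024 or 0.086. Without the 4 highest-numbered libraries it was −0.85 and called lower (edgeR adjusted p = 0.0203). In wild type CDKN1A fell 2.40-fold in 0.1% serum on the ERCC scale (log2 fold change −1.26, SE 0.45, edgeR adjusted p = 0.0249). That call was lost without library 1, 2, 7 or 9, with log2 fold changes of −1.25 to −1.05 and edgeR adjusted p of 0.0940 to 0.152. The TMM scale gave −0.23 (SE 0.17, edgeR adjusted p = 0.326), which was −0.50 and called without the 4 highest-numbered libraries (edgeR adjusted p = 8.10e-12).

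The promoter of CDKN1A is shown because this gene had the strongest difference between the genotypes among the 10. The window holds the 250 bases before the transcript start at chr6:36678464-36678713 on the plus strand of GRCh38.p14, from RefSeq, with each GC box GGGCGG in capitals. This window lies inside the gene span given above. Both strands were searched, and the window holds 4 copies, the last 2 of which share a base. Of all 35116 promoter windows in the table, 42.6% hold this motif.
CDKN1A: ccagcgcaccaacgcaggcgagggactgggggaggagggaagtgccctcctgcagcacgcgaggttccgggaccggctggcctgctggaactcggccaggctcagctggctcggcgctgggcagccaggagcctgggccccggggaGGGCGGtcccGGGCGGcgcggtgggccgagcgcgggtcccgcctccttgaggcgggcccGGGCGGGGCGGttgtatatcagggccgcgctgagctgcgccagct

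CDKN1B encodes p27, which rises as a protein when fibroblasts stop dividing, and lies on chromosome 12 (chr12:12715058-12722371, plus strand). Its ERCC-scaled counts in wild type were 9514, 7569.7 and 4608 in 10% serum against 2199, 2832 and 2369 in 0.1% serum. In ΔLEO1 they were 13159, 9474 and 9264 in 10% serum and 2028, 1126 and 6931 in 0.1% serum. The RNA was lower in 0.1% serum in both genotypes, with no overlap between the serum levels in either. The fall was 2.93-fold in wild type (log2 fold change −1.55, SE 0.45, edgeR adjusted p = 0.00698) and 3.17-fold in ΔLEO1 (log2 fold change −1.66, SE 0.45, edgeR adjusted p = 0.00504). The wild-type call was lost without library 1 or 7 (log2 fold changes −1.31 and −1.48, edgeR adjusted p = 0.0743 and 0.0687). The ΔLEO1 call was lost without library 4 or 10 (−1.49 and −1.41, edgeR adjusted p = 0.0512 and 0.0893). Without library 12 the fall was deeper, at −2.75 (edgeR adjusted p = 2.73e-08), and without the 4 highest-numbered libraries it was −2.84 (edgeR adjusted p = 3.48e-12).

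Relative to the other genes, CDKN1B also fell in ΔLEO1 (log2 fold change −0.80, SE 0.23, edgeR adjusted p = 0.00295), and this held with each of the 12 libraries left out in turn. The wild-type value on the TMM scale was −0.53 and not called (SE 0.23, edgeR adjusted p = 0.0616). Without the highest-numbered libraries, where only the closest pairs were left, it was −0.74 and called (edgeR adjusted p = 9.64e-23). Between the genotypes CDKN1B gave log2 fold changes of 0.56 (SE 0.45, edgeR adjusted p = 0.548) in 10% serum and 0.45 (SE 0.45, edgeR adjusted p = 0.779) in 0.1% serum on the ERCC scale. The latter was −0.65 without library 12 (edgeR adjusted p = 0.420) and −0.045 on the TMM scale, so its direction was not settled.

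CDKN1C encodes p57, the imprinted member of the family, on chromosome 11 (chr11:2883213-2885773, minus strand). It was scarce, with 67 to 430 counts per library. Its ERCC-scaled counts were 294, 233 and 198 in wild type and 542, 375 and 1021 in ΔLEO1 in 10% serum. In 0.1% serum they were 93.2, 184 and 349.5 in wild type and 369.5, 242 and 1041 in ΔLEO1. The ΔLEO1 libraries lay above the wild-type ones in 10% serum without overlap, and in every group but wild type in 10% serum the highest-numbered library held the most. The log2 fold change between genotypes was 1.42 (SE 0.51, edgeR adjusted p = 0.0608) in 10% serum and 1.39 (SE 0.50, edgeR adjusted p = 0.0801) in 0.1% serum. Neither passed the threshold, though the 10% comparison did without library 11 or 12 (1.42 each, edgeR adjusted p = 0.0146 and 0.00532), which are not in the groups compared. With each library left out it ranged from 0.94 to 1.71 (highest edgeR adjusted p = 0.419). Without the 4 highest-numbered libraries it was 0.80 and not called (edgeR adjusted p = 0.175). The 0.1% comparison passed without library 9 or 11 (1.99 and 1.75, edgeR adjusted p = 0.0270 and 0.00405), and without the 4 highest-numbered libraries (1.16, edgeR adjusted p = 0.0187). With each library left out it ranged from 0.54 to 1.99 (highest edgeR adjusted p = 0.699). The serum comparisons gave −0.20 (SE 0.51, edgeR adjusted p = 0.715) in wild type and −0.24 (SE 0.50, edgeR adjusted p = 0.664) in ΔLEO1. The wild-type value was 0.15 without library 7 and −0.81 without library 9 (edgeR adjusted p = 0.298). CDKN1C was called lower in wild type without the 4 highest-numbered libraries, at −0.94 (edgeR adjusted p = 0.0256). In ΔLEO1 it was 0.25 without library 6 and 0.12 without library 11, and −1.08 and called without library 12 (edgeR adjusted p = 0.0209). Relative to the other genes, both signs turned, to 0.88 and 0.62.

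The INK4 genes CDKN2A and CDKN2B are neighbors on the minus strand of chromosome 9, at chr9:21967753-21995301 and chr9:22002903-22009363. CDKN2A encodes both p16, the INK4 protein that accumulates in senescence, and p14ARF, which stabilizes p53, from separate starts, and the gene count adds their transcripts together. CDKN2B encodes p15, which transforming growth factor beta induces. Antisense to them lies CDKN2B-AS1, which shares 341 exon bases with CDKN2A, or 7.88% of its exon bases, and none with CDKN2B. Over the 12 libraries CDKN2B-AS1 had 974 counts, CDKN2A 8012 and CDKN2B 14260. The strand setting of the counting is not given in the sources used here, so reads over the shared bases could belong to either. CDKN2A and CDKN2B also share 23 stretches of 58 bases, 0.502% and 0.568% of their stretches. Their promoter windows from RefSeq (GRCh38.p14, minus strand) are shown since both genes were called on the TMM scale. CDKN2A has a window for each of its starts, at chr9:21995325-21995574 and chr9:21974858-21975107, and that of CDKN2B is chr9:22009306-22009555. The latter CDKN2A window lies inside the gene span, and that of CDKN2B lies partly inside its own. Capitals mark the GC box, GGGCGG, or CCGCCC where it lies on the other strand. The first window of CDKN2A holds none, the second holds 1, and that of CDKN2B holds 2, 1 on each strand.
CDKN2A window 1: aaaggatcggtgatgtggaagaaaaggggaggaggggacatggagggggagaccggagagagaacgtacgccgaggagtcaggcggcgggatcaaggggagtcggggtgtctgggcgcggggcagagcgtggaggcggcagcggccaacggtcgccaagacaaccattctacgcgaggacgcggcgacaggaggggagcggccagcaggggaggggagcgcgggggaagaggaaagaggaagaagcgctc
CDKN2A window 2: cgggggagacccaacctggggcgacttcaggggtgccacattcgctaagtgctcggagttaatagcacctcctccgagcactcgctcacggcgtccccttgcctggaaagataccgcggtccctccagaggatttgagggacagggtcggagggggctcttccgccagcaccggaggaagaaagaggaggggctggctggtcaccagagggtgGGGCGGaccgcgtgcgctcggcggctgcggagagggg
CDKN2B: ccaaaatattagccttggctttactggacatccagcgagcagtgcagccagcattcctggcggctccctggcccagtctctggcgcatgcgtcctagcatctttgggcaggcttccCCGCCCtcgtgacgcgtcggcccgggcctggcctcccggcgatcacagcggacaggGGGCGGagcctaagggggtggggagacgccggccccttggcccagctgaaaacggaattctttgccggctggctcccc

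CDKN2A had 10.7, 11.3 and 10.2 CPM in wild type in 10% serum and 23.9, 27.2 and 23.3 CPM in 0.1% serum. In ΔLEO1 it had 14.7, 13.2 and 9.84 CPM in 10% serum and 31.4, 34.3 and 19.0 CPM in 0.1% serum. In both genotypes every library in 0.1% serum was above every library in 10% serum. On the TMM scale CDKN2A rose 2.18-fold in wild type (log2 fold change 1.13, SE 0.23, edgeR adjusted p = 1.21e-05) and 2.17-fold in ΔLEO1 (log2 fold change 1.11, SE 0.23, edgeR adjusted p = 1.54e-05). Both rises held with each library left out in turn, over log2 fold changes of 1.06 to 1.17 and 0.96 to 1.36. The ERCC-scaled counts overlapped, at 1348, 1183 and 707 against 1121, 1644 and 868 in wild type and 2324, 1540.4 and 1037 against 1652, 1027 and 1719 in ΔLEO1. On this scale the log2 fold changes were 0.17 (SE 0.47, edgeR adjusted p = 0.749) and −0.16 (SE 0.47, edgeR adjusted p = 0.764). Their signs were not settled, at −0.064 and −0.12 without library 3 and 8 in wild type and 0.17 and 0.047 without library 4 and 11 in ΔLEO1. In wild type 96.2% of all tested genes had a lower log2 fold change than CDKN2A, and in ΔLEO1 93.1%. The antisense CDKN2B-AS1 had 1.28 to 1.84 CPM in 10% serum and 2.46 to 4.001 CPM in 0.1% serum, and its part in the CDKN2A values was not tested. The genotypes gave log2 fold changes of 0.60 (SE 0.47, edgeR adjusted p = 0.539) in 10% and 0.28 (SE 0.47, edgeR adjusted p = 0.866) in 0.1% serum.

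CDKN2B was higher in every ΔLEO1 library than in every wild-type library of the same serum, on both scales. Its ERCC-scaled counts were 1514, 1475 and 1334 in wild type and 4433, 3052 and 4343 in ΔLEO1 in 10% serum. In 0.1% serum they were 1195, 1715 and 707 in wild type and 2973, 2474 and 3919 in ΔLEO1. The rise in ΔLEO1 was 2.74-fold in 10% serum (log2 fold change 1.45, SE 0.46, edgeR adjusted p = 0.0253) and 2.59-fold in 0.1% serum (log2 fold change 1.37, SE 0.46, edgeR adjusted p = 0.0454). In 0.1% serum the quasi-likelihood test did not call it (adjusted p = 0.0720). Nor was it called without the 4 highest-numbered libraries (0.91, edgeR adjusted p = 0.0584) or with the highest-numbered library as a covariate (1.39, edgeR adjusted p = 0.0674). The 10% call was lost without library 1, 2, 3, 4 or 6, where the log2 fold change stayed between 1.38 and 1.52 (edgeR adjusted p 0.0724 to 0.124). The 0.1% call was lost without library 2, 4, 5, 6, 7, 9 or 10, with values from 1.10 to 1.44 (edgeR adjusted p 0.0520 to 0.381). Relative to the other genes, the rises were 1.07 (SE 0.28, edgeR adjusted p = 7.82e-04) and 1.35 (SE 0.28, edgeR adjusted p = 2.08e-05), and these held with each of the 12 libraries left out in turn.

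Across the serum change CDKN2B gave −0.26 (SE 0.46, edgeR adjusted p = 0.609) in wild type and −0.34 (SE 0.46, edgeR adjusted p = 0.4998) in ΔLEO1 on the ERCC scale. The wild-type value was 0.013 without library 9. Among all genes on the TMM scale CDKN2B rose in ΔLEO1 (log2 fold change 0.88, SE 0.28, edgeR adjusted p = 0.00956), from 28.02, 26.2 and 41.2 CPM to 56.4, 82.6 and 43.2 CPM. That call on the TMM scale was lost without library 4, 5 or 11, with a lowest value of 0.59 and a highest edgeR adjusted p of 0.115. In wild type CDKN2B had 12.01, 14.0 and 19.2 CPM in 10% and 25.5, 28.4 and 19.0 CPM in 0.1% serum, and the TMM value was 0.60 (SE 0.28, edgeR adjusted p = 0.0878). The order of the wild-type libraries turned at the highest-numbered ones, since library 3 had the most CDKN2B in 10% serum and library 9 the least in 0.1% serum. Without the 4 highest-numbered libraries the TMM value was 0.96 and called (edgeR adjusted p = 4.21e-11).

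CDKN2C encodes p18 and lies on chromosome 1 (chr1:50960745-50974633, plus strand). Its ERCC-scaled counts in wild type were 6949, 5649.8 and 2349 in 10% serum against 2000.1, 2602 and 2793 in 0.1% serum. In ΔLEO1 they were 5701, 4241 and 2732 in 10% serum and 1628, 819 and 3467 in 0.1% serum. The serum levels overlapped in both genotypes, in wild type through the low value of library 3 and in ΔLEO1 through the high value of library 12. The fall in ΔLEO1 passed the threshold at −1.10 (SE 0.46, edgeR adjusted p = 0.0408), but not in the quasi-likelihood test (adjusted p = 0.0562). It was lost without library 2, 4, 5, 7, 10 or 11, with values of −1.11 to −0.73 (edgeR adjusted p 0.0566 to 0.199), and was −1.79 without library 12 (edgeR adjusted p = 1.01e-04). It was also lost with the highest-numbered library as a covariate (edgeR adjusted p = 0.0626), and was −2.02 without the 4 highest-numbered libraries (edgeR adjusted p = 2.05e-07). The wild-type value was −1.01 (SE 0.45, edgeR adjusted p = 0.0627). It was called without library 3 (−1.35, edgeR adjusted p = 0.0186), and also without library 11 or 12 at an unchanged −1.01 (edgeR adjusted p = 0.0182 and 0.0113). It was −1.45 without the 4 highest-numbered libraries (edgeR adjusted p = 3.44e-04). On the ERCC scale 45.5% of all tested genes had a lower value than CDKN2C in wild type, and 44.3% in ΔLEO1. The TMM scale gave 0.090 in wild type and −0.090 in ΔLEO1, neither of them called (edgeR adjusted p = 0.819 and 0.826). Without those libraries the TMM values were −0.43 and −0.33, both called (edgeR adjusted p = 5.64e-07 and 2.16e-04). Between the genotypes in 0.1% serum CDKN2C was lower in ΔLEO1 on the TMM scale (log2 fold change −0.73, SE 0.26, edgeR adjusted p = 0.0176), with 42.7, 43.1 and 74.9 CPM in wild type against 30.9, 27.3 and 38.2 CPM. That call was lost without library 9, 10 or 11, with a highest edgeR adjusted p of 0.171. The ERCC scale gave −0.32 (SE 0.46, edgeR adjusted p = 0.842), and 0.046 without library 11. In 10% serum it gave −0.24 (SE 0.45, edgeR adjusted p = 0.796), and 0.094 and 0.0023 without library 1 and 6.

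CDKN2D encodes p19 and lies on chromosome 19 (chr19:10566462-10569059, minus strand). Its counts were low, from 84 to 433 per library. The ERCC-scaled counts were 812, 922 and 427 in 10% and 172, 193 and 449.7 in 0.1% serum in wild type. In ΔLEO1 they were 1492, 1113 and 1018 in 10% and 312, 160.2 and 848 in 0.1% serum. It was lower in 0.1% serum in wild type, at −1.40 (SE 0.49, edgeR adjusted p = 0.0245), and in ΔLEO1, at −1.46 (SE 0.49, edgeR adjusted p = 0.0192), where the serum levels did not overlap. In wild type library 9 lay just above library 3, so the serum levels overlapped there. The wild-type call was lost without library 1, 2, 7 or 8 (−1.30 to −1.16, edgeR adjusted p 0.0759 to 0.151). The ΔLEO1 call was lost without library 4, 10 or 11 (−1.30 to −1.06, edgeR adjusted p 0.113 to 0.118) and was −2.36 without library 12 (edgeR adjusted p = 7.61e-06). Without the 4 highest-numbered libraries the log2 fold changes were −2.25 and −2.47, both called. On the TMM scale they were −0.25 in wild type and −0.54 in ΔLEO1, neither of them called (edgeR adjusted p = 0.686 and 0.349). Without those libraries the TMM values were −1.22 and −0.77, both called (edgeR adjusted p = 2.33e-12 and 1.78e-06). Between the genotypes CDKN2D gave 0.75 (SE 0.49, edgeR adjusted p = 0.464) in 10% serum, where ΔLEO1 lay above wild type without overlap, and 0.68 (SE 0.49, edgeR adjusted p = 0.666) in 0.1% serum. The latter was −0.22 without library 12.

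RB1 encodes the retinoblastoma protein itself and spans 295711 bases of chromosome 13 (chr13:48303726-48599436, plus strand). Its ERCC-scaled counts in wild type were 11350.0, 9404 and 5887 in 10% serum against 2909.7, 3510.5 and 2110.5 in 0.1% serum. In ΔLEO1 they were 14525, 11804 and 10159 in 10% serum and 3224, 1878 and 7640.1 in 0.1% serum. The serum levels did not overlap in either genotype, and the same held in CPM. RB1 fell 3.12-fold in wild type (log2 fold change −1.64, SE 0.45, edgeR adjusted p = 0.00423) and 2.86-fold in ΔLEO1 (log2 fold change −1.52, SE 0.45, edgeR adjusted p = 0.00965). The wild-type call was lost only without library 9 (−1.47, edgeR adjusted p = 0.0524). The ΔLEO1 call was lost without library 4, 10 or 11 (−1.39 to −1.16, edgeR adjusted p 0.0607 to 0.0946). It was −2.25 without library 12 (edgeR adjusted p = 3.30e-06) and −2.37 without the 4 highest-numbered libraries (edgeR adjusted p = 3.54e-09).

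RB1 also fell relative to the other genes, from 90.0, 89.5 and 84.7 CPM to 62.1, 58.2 and 56.6 CPM in wild type (log2 fold change −0.66, SE 0.12, edgeR adjusted p = 7.34e-07). In ΔLEO1 it fell from 91.8, 101 and 96.3 CPM to 61.2, 62.7 and 84.2 CPM (log2 fold change −0.54, SE 0.12, edgeR adjusted p = 8.14e-05). Both falls on the TMM scale were called with each of the 12 libraries left out in turn, over −0.70 to −0.64 and −0.67 to −0.48. Between the genotypes RB1 gave 0.45 (SE 0.45, edgeR adjusted p = 0.618) in 10% serum and 0.58 (SE 0.45, edgeR adjusted p = 0.707) in 0.1% serum, the latter −0.16 without library 12. The intervals of these differences were −0.43 to 1.33 and −0.30 to 1.46 (95%).

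RBL1 encodes p107, whose gene is itself an E2F target, and lies on chromosome 20 (chr20:36996349-37095995, minus strand). Its RefSeq promoter window, the 250 bases before the start at chr20:37095998-37096247 on the minus strand of GRCh38.p14, is shown because its level is set beside that of E2F target genes here. Capitals mark the E2F motifs TTTCGCGC, 26 to 19 bases before the start, and TTTGGCGC, 16 to 9 bases before it. On either strand, 0.439% and 0.550% of all 35116 windows hold these motifs. Of the 9 genes among the 10 with a window in the table, RBL1 was the only one with either. The windows of RB1, CDKN1A, CDKN1B and RBL2, window 2 of CDKN2A and windows 2 and 3 of CDKN2C lie inside the gene spans. Those of CDKN2B and CDKN2D lie partly inside. A match is a description of the sequence and not a binding site.
RBL1: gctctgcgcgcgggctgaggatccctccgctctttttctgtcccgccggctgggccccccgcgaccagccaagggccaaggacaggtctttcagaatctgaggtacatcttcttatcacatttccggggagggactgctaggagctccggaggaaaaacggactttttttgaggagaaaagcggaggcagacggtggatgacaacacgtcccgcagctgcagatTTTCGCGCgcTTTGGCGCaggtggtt

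The ERCC-scaled counts of RBL1 in wild type were 2441, 2220.2 and 733 in 10% serum against 661, 715 and 729 in 0.1% serum. In ΔLEO1 they were 2814, 2276 and 1313 in 10% serum and 787, 418 and 1981 in 0.1% serum. Library 3 lay just above the wild-type libraries in 0.1% serum, and library 12 lay among the ΔLEO1 libraries in 10% serum. RBL1 fell in wild type (log2 fold change −1.36, SE 0.47, edgeR adjusted p = 0.0227), a call lost without library 1, 2, 7 or 9 (−1.39 to −1.08, edgeR adjusted p 0.0896 to 0.159). In ΔLEO1 the value was −1.01 (SE 0.47, edgeR adjusted p = 0.0613), called without library 6 (−1.27, edgeR adjusted p = 0.0411) or 12 (−1.82, edgeR adjusted p = 1.24e-04). Without the 4 highest-numbered libraries RBL1 fell in both genotypes, with log2 fold changes of −1.76 and −2.08 (edgeR adjusted p = 1.78e-05 and 1.10e-07). On the TMM scale the values were −0.25 and −0.037, neither of them called, and without those libraries −0.72 and −0.39, both called (edgeR adjusted p = 2.78e-10 and 7.69e-04). The genotypes gave 0.25 (SE 0.47, edgeR adjusted p = 0.795) in 10% and 0.59 (SE 0.47, edgeR adjusted p = 0.712) in 0.1% serum, which were −0.13 without library 3 and −0.22 without library 12.

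In CPM, RBL1 went with the summed level of 20 genes that RB and DREAM complexes repress, among them MKI67, PCNA and CCNB1. The wild-type libraries in 10% serum had 19.4, 21.1 and 10.6 CPM of RBL1 beside target sums of 1380.1, 1391 and 477 CPM. Those in 0.1% serum had 14.1, 11.9 and 19.6 CPM beside 659.7, 626 and 1003 CPM. In ΔLEO1 the values were 17.8, 19.5 and 12.4 CPM beside 1493, 1648 and 872 CPM in 10% serum, and 14.95, 14.0 and 21.8 CPM beside 926, 889.9 and 1157 CPM in 0.1% serum. The highest-numbered library of each group had the lowest RBL1 and target values in 10% serum and the highest in 0.1% serum. The same held for CDKN2C, whose windows hold neither E2F motif. Its CPM was lowest in libraries 3 and 6 (33.8 and 25.9) and highest in libraries 9 and 12 (74.9 and 38.2) of their groups. CDKN2D was also highest in libraries 9 and 12 (12.1 and 9.35 CPM) and lowest in library 3 (6.15 CPM). In library 6 it went the other way, with the highest value of that group (9.66 CPM). Library 3, labelled 10% serum, had a lower target sum than all 6 libraries in 0.1% serum. The level of the target genes moved with RBL1 over these 12 libraries, and its part in the RBL1 values was not tested.

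**Figure D2:**
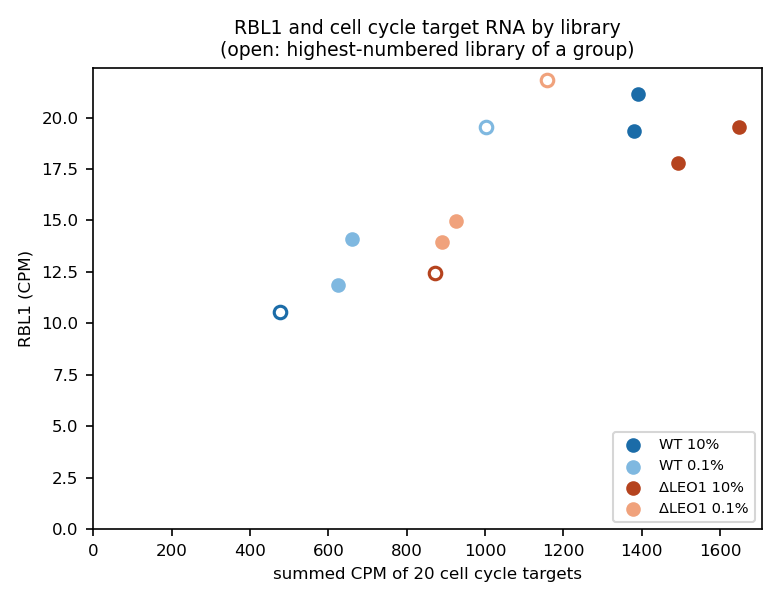
RBL1 (CPM, vertical axis) against the summed CPM of 20 RB and DREAM target genes (horizontal axis) in the 12 libraries, with open points for the highest-numbered library of each group. Wild-type library 3 sits lowest at 477 and 10.6 CPM, and the open points of 0.1% serum lie above and to the right of the filled points of their groups.

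RBL2 encodes p130, the family member of quiescent cells, on chromosome 16 (chr16:53433977-53491649, plus strand). AKTIP, which runs antisense to it with 5959 counts over the 12 libraries, shares 610 of the exon bases of RBL2 (8.33%). In CPM RBL2 had 56.4, 59.8 and 56.5 in 10% and 78.6, 72.7 and 57.4 in 0.1% serum in wild type. In ΔLEO1 it had 51.5, 50.3 and 56.2 in 10% and 58.3, 63.0 and 72.5 in 0.1% serum. The levels in 0.1% serum were higher without overlap in ΔLEO1, and library 9 overlapped with the 10% libraries in wild type. Relative to the other genes, the log2 fold changes were 0.19 (SE 0.13, edgeR adjusted p = 0.280) in wild type and 0.23 (SE 0.13, edgeR adjusted p = 0.182) in ΔLEO1, neither of them called. Without the 4 highest-numbered libraries they were 0.30 and 0.23 and both called (edgeR adjusted p = 2.64e-04 and 0.00521). Its ERCC-scaled counts in wild type were 7108, 6285 and 3926 in 10% and 3680.3, 4386 and 2139 in 0.1% serum, and in ΔLEO1 8152, 5858 and 5922 in 10% and 3073, 1886 and 6574 in 0.1% serum. These overlapped in both genotypes. On this scale RBL2 gave −0.76 (SE 0.45, edgeR adjusted p = 0.139) in wild type and −0.79 (SE 0.45, edgeR adjusted p = 0.115) in ΔLEO1. Both passed without library 12 (−0.76 and −1.42, edgeR adjusted p = 0.0493 and 0.00110). The ΔLEO1 value was −1.50 and called without the 4 highest-numbered libraries (edgeR adjusted p = 5.59e-05). The genotypes gave 0.20 (SE 0.45, edgeR adjusted p = 0.826) in 10% and 0.18 (SE 0.45, edgeR adjusted p = 0.901) in 0.1% serum, of which the former was −0.012 without library 3 and the latter −0.070 and −0.46 without library 9 and 12.

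In wild type 5 of the 10 genes were called lower in 0.1% serum, namely CDKN1A, CDKN1B, CDKN2D, RB1 and RBL1, and none higher. Of all tested genes 36.1% were called lower and 0.944% higher, and the median of the 10 was −1.14 beside −0.97 over all genes. The quasi-likelihood test and DESeq2 called the same 5 lower and 0 higher, where the quasi-likelihood test called 27% of all genes lower and 0.831% higher. In 4 of the 10 genes the ERCC-scaled counts were lower without overlap, against 53.4% of all genes, and in 0 higher, against 1.16%. In CPM CDKN1B and RB1 were lower without overlap, against 18.6% of all genes, and CDKN2A higher, against 31.5%. At an unadjusted p under 0.05, 6 of the 10 were lower and 0 higher in the likelihood ratio test. The share of all genes at an unadjusted p under 0.05, or called by DESeq2, is not given for any comparison. Such counts therefore cannot be set against all genes, here or below. On the TMM scale RB1 was called lower (16.6% of all genes) and CDKN2A higher (16% of all genes).

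In ΔLEO1 4 of the 10 were called lower in 0.1% serum (CDKN1B, CDKN2C, CDKN2D and RB1), against 47.2% of all tested genes. None was called higher, against 0.975% of all genes, and at an unadjusted p under 0.05 there were 5 lower and 0 higher. The quasi-likelihood test and DESeq2 each called 3 lower, without CDKN2C, and 0 higher, where the quasi-likelihood test called 36.4% of all genes lower and 0.793% higher. The median of the 10 was −0.90 beside −1.05 over all genes. In 3 genes the ERCC-scaled counts were lower without overlap, against 50.9% of all genes, and in 0 higher, against 0.846%. Relative to the other genes, 2 were lower (CDKN1B and RB1, against 12.9% of all genes) and 3 higher (CDKN1A, CDKN2A and CDKN2B, against 16.5%). In CPM, CDKN1A, CDKN2A, CDKN2B and RBL2 were higher without overlap, against 27.3% of all genes, and CDKN1B, CDKN2D and RB1 lower, against 15.8%.

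**Figure D3:**
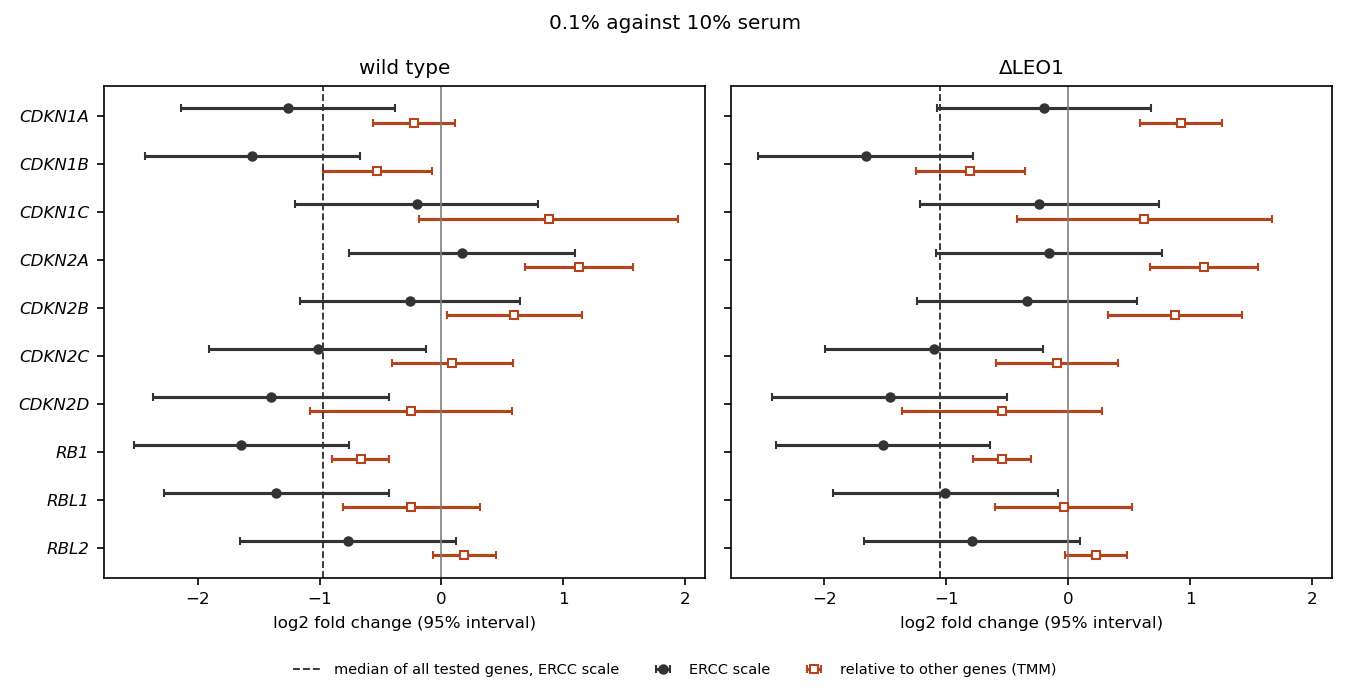
Log2 fold change in 0.1% against 10% serum with its 95% interval for the 10 genes in wild type (left) and ΔLEO1 (right), on the ERCC scale (filled circles) and the TMM scale (open squares), with a dashed line at the ERCC median of all tested genes (−0.97 and −1.05). CDKN1B, CDKN2D and RB1 lie left of 0 on both scales in both panels, and CDKN2A lies near 0 on the ERCC scale and at 1.13 and 1.11 on the TMM scale.

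Between the genotypes in 10% serum, CDKN1A was called lower (4.64% of all tested genes) and CDKN2B higher (4.2% of all tested genes) in ΔLEO1, and the other 8 were not called. The quasi-likelihood test called the same genes (adjusted p = 0.00105 and 0.0420), where it called 4.2% of all genes lower and 3.81% higher. So did the TMM scale, with 21.8% of all genes lower and 17.7% higher. The ERCC-scaled counts of CDKN1C, CDKN2B and CDKN2D were higher without overlap, against 23.7% of all genes, and those of CDKN1A lower, against 6.94%. The median of the 10 was 0.51, beside 0.35 over all genes. In CPM, CDKN1A and RBL2 were lower without overlap, against 29.6% of all genes, and CDKN1B, CDKN1C, CDKN2B, CDKN2D and RB1 higher, against 29.8%.

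In 0.1% serum CDKN2B alone was called higher (3.85% of all tested genes). None of the 10 was called lower (3.59% of all tested genes), and at an unadjusted p under 0.05, 1 was lower and 2 were higher. The quasi-likelihood test called none of the 10, where it called 3.41% of all genes lower and 3.49% higher. The ERCC-scaled counts of CDKN2B were higher without overlap, against 4.64% of all genes, and those of CDKN1A lower, against 4.83%. The median of the 10 was 0.51, beside 0.27 over all genes. In CPM, CDKN1A and CDKN2C were lower without overlap, against 21.8% of all genes, and CDKN2B higher, against 19.7%. On the TMM scale CDKN1A and CDKN2C were lower (17.6% of all genes) and CDKN2B higher (15.4% of all genes).

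The difference between the genotypes in the serum response was tested as an interaction, in which the serum change of wild type was subtracted from that of ΔLEO1. On the ERCC scale the likelihood ratio and quasi-likelihood tests and DESeq2 called none of the 10, and the first and second called 0.219% and 0.174% of all tested genes. At an unadjusted p under 0.05 there were 0 of the 10, and the smallest p of the likelihood ratio test was 0.0936. The value of CDKN1A was 1.06 (SE 0.63, edgeR adjusted p = 1.00), with a 95% interval of −0.18 to 2.31. Relative to the other genes, CDKN1A was called at 1.15 (SE 0.24, edgeR adjusted p = 2.61e-04), against 4.08% of all genes, and this held with each of the 12 libraries left out in turn (1.03 to 1.34).

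**Figure D4:**
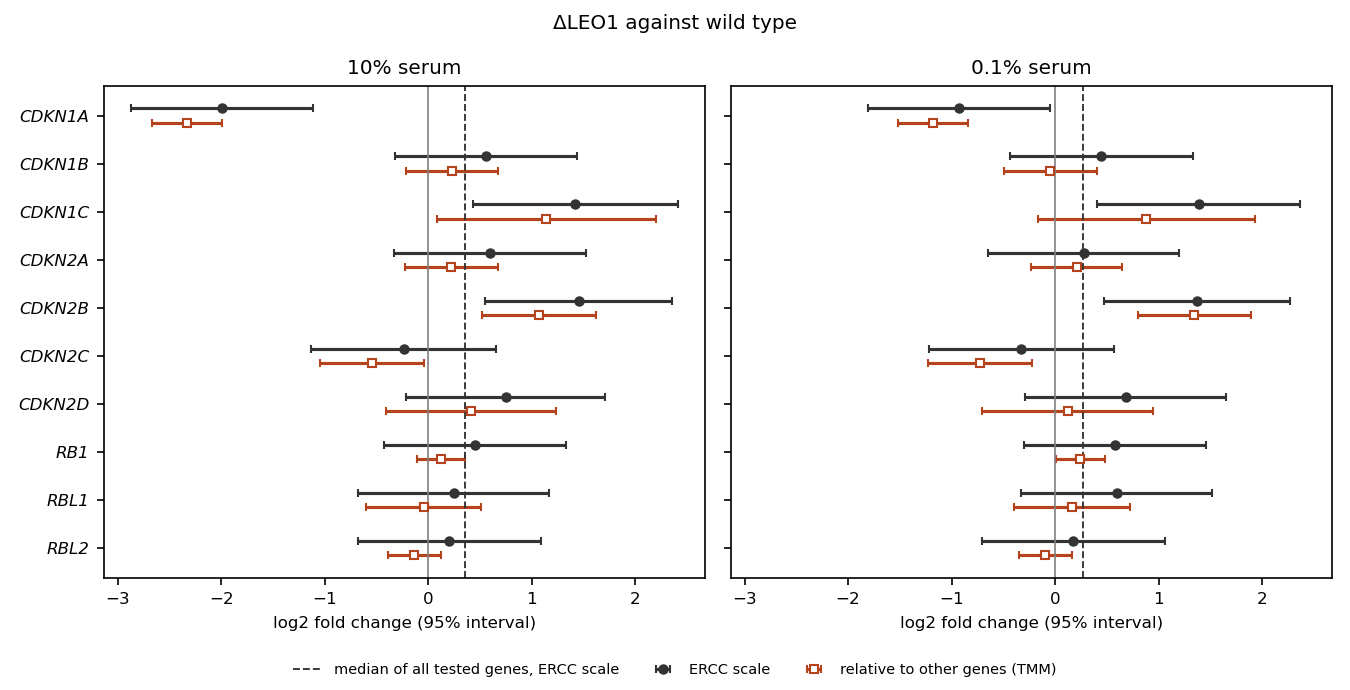
Log2 fold change in ΔLEO1 against wild type with its 95% interval for the 10 genes in 10% serum (left) and 0.1% serum (right), on the ERCC scale (filled circles) and the TMM scale (open squares), with a dashed line at the ERCC median of all tested genes (0.35 and 0.27). CDKN1A lies left of 0 and CDKN2B right of 0 on both scales in both panels.

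Shares within a family compare genes in the same library, so that no scaling between libraries enters them. Of the CPM per kb of the 3 CIP/KIP genes, CDKN1A took 71.6% ± 1.504 in wild type in 10% serum and 74.7% ± 0.702 in 0.1% serum (SD, n = 3). In ΔLEO1 its share was 29.4% ± 5.04 in 10% serum and 56.0% ± 10.4 in 0.1% serum. CDKN1B took 65.8% ± 1.98 of the family in ΔLEO1 in 10% serum and 27.3% ± 1.28 in wild type. The ratio of CDKN1A to CDKN1B per kb was 2.59, 2.83 and 2.47 in wild type and 0.475, 0.521 and 0.349 in ΔLEO1 in 10% serum. In 0.1% serum it was 3.09, 3.29 and 3.32 in wild type and 1.88, 2.12 and 0.923 in ΔLEO1. The genotypes overlapped at neither serum level, and in each genotype the ratio was higher in 0.1% serum without overlap. Library 12, at 0.923, was closest to the ΔLEO1 libraries in 10% serum.

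In the INK4 family CDKN2C took the largest share in wild type, with 56.2% ± 7.80 in 10% and 49.6% ± 5.24 in 0.1% serum. In ΔLEO1 it took 36.6% ± 6.35 and 27.6% ± 7.31. CDKN2B took 15.2% ± 6.01 in wild type and 29.1% ± 7.80 in ΔLEO1 in 10% serum, and 19.8% ± 7.20 and 41.2% ± 9.18 in 0.1% serum. The ratio of CDKN2B to CDKN2C per kb was 0.178, 0.213 and 0.464 in wild type and 0.636, 0.589 and 1.30 in ΔLEO1 in 10% serum. In 0.1% serum it was 0.488, 0.539 and 0.207 in wild type and 1.49, 2.47 and 0.924 in ΔLEO1, so that the genotypes were apart at both levels. The neighbors CDKN2B and CDKN2A also stood in another ratio in each genotype, with 1.198, 1.33 and 2.01 in wild type and 2.03, 2.11 and 4.47 in ΔLEO1 in 10% serum, where libraries 3 and 4 nearly met. In 0.1% serum it was 1.14, 1.11 and 0.868 in wild type and 1.92, 2.57 and 2.43 in ΔLEO1.

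Within the retinoblastoma family RB1 had a smaller and RBL2 a larger mean share in 0.1% than in 10% serum. RB1 took 56.1% ± 1.92 in 10% and 43.2% ± 0.874 in 0.1% serum in wild type, and 60.0% ± 1.13 and 47.9% ± 1.04 in ΔLEO1. RBL2 took 32.3% ± 1.63 and 44.7% ± 4.58 in wild type, and 28.9% ± 2.25 and 39.6% ± 2.24 in ΔLEO1. The ratio of RB1 to RBL2 per kb in wild type was 1.81, 1.70 and 1.70 in 10% and 0.897, 0.908 and 1.12 in 0.1% serum. In ΔLEO1 it was 2.02, 2.29 and 1.95 in 10% and 1.19, 1.13 and 1.32 in 0.1% serum. No library in 0.1% serum reached any library in 10% serum, the highest-numbered ones included. The ratio was also higher in every ΔLEO1 library than in every wild-type library of the same serum, though libraries 9 and 11 lay close at 1.12 and 1.13. These ratios are descriptions, since no test across all genes covers them.

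**Figure D5:**
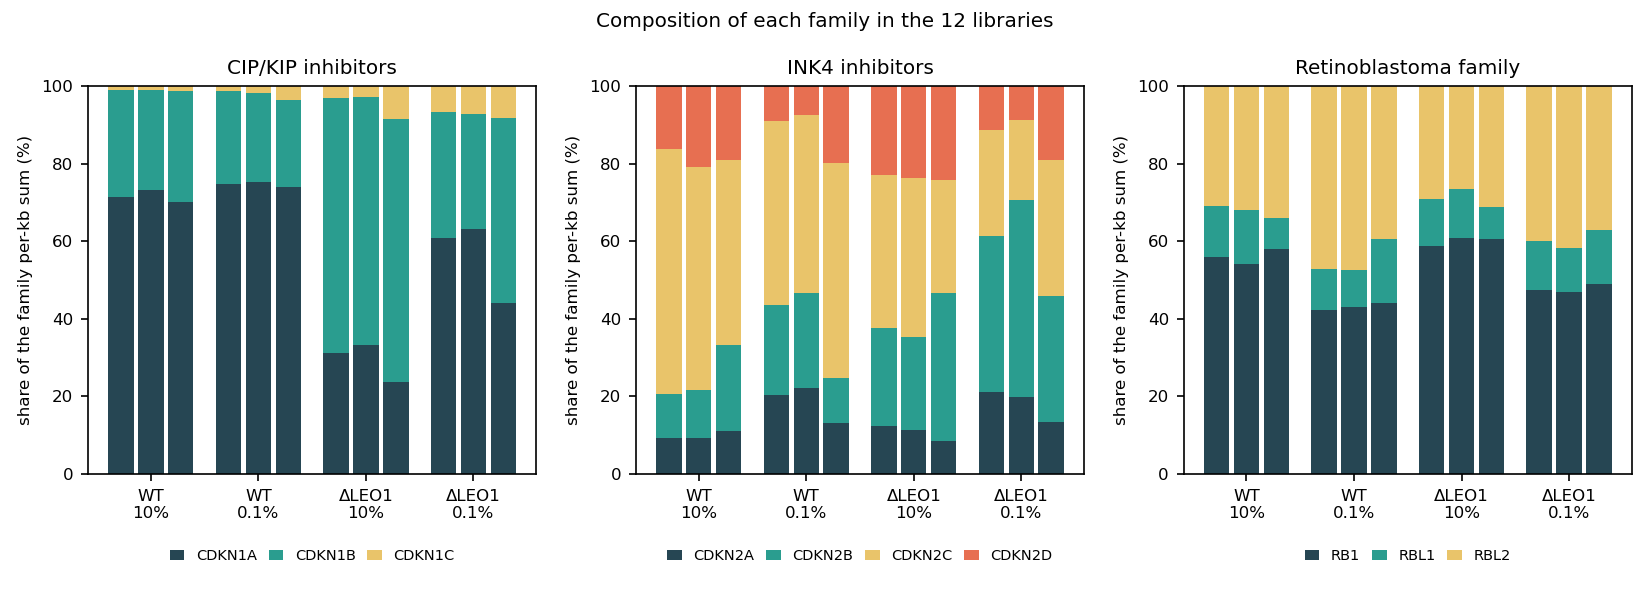
Stacked bars with the share (%) of each gene in the summed CPM per kb of its family, 1 bar for each of the 12 libraries in order of their number within the 4 groups. CDKN1A takes 70.2% to 75.4% of the CIP/KIP bars in wild type and 23.7% to 33.3% in ΔLEO1 in 10% serum, and RB1 takes a smaller share of its family in 0.1% than in 10% serum in both genotypes.

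Cyclins and kinases that the inhibitors block were described from lists on the ERCC scale, where 36.1% of all tested genes were called lower in 0.1% serum in wild type and 47.2% in ΔLEO1. Of 4 tested genes of the D cyclin list, 2 were lower in wild type and 3 in ΔLEO1 and 0 higher in either (median −1.12 and −1.31). CCND3, a D cyclin, had log2 fold changes of −1.98 in wild type and −2.15 in ΔLEO1. CDK6, a partner of the D cyclins, had −1.35 and −1.54. Both were lower on the TMM scale too in each genotype, where CDK4 was called higher in wild type. Of 8 genes of cyclins E and A, CDK2, CDK1 and the CDC25 phosphatases, 7 were lower in wild type and 8 in ΔLEO1, with medians of −1.60 and −1.65. The S phase cyclin CCNA2 gave −2.06 and −2.16, and CCNE2 gave −2.06 and −1.95.

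Among the factors downstream, 4 of 5 activating E2F and DP genes were lower in each genotype, with E2F1 at −1.86 and −1.75. Of 5 repressive E2F genes 3 were lower in wild type and 2 in ΔLEO1, with E2F7 at −1.84 and −1.86. Of 7 MuvB core and DYRK kinase genes, which build and switch on the DREAM complex, 2 were lower in wild type and 3 in ΔLEO1, against 36.1% and 47.2% of all genes, with medians of −0.96 and −1.05, next to the all-gene medians. Both activating partners of MuvB, MYBL2 and FOXM1, were lower, with MYBL2 at −2.49 and −2.28. All 20 repressed targets were lower in each genotype, with medians of −1.78 and −1.61. On the TMM scale only 3 of the 20 were called lower in each, against 16.6% of all genes in wild type and 12.9% in ΔLEO1. These were MKI67, AURKA and CDC6 in wild type and AURKA, PLK1 and CDC6 in ΔLEO1. The quasi-likelihood test on the ERCC scale called 20 and 19 of the 20, against 27% and 36.4% of all genes. None of the genes on these lists was called higher on the ERCC scale in either genotype, where 0.944% and 0.975% of all genes were.

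Genes that act on the inhibitors themselves were described in the same way. Of 10 genes that degrade p27 and p21, 7 were lower in wild type and 8 in ΔLEO1, against 36.1% and 47.2% of all genes. The quasi-likelihood test called 4 and 8 of them, against 27% and 36.4% of all genes. SKP2, the subunit that recognizes p27 for degradation, had a log2 fold change of −2.57 in wild type (SE 0.45, edgeR adjusted p = 5.04e-06) and −2.56 in ΔLEO1 (SE 0.45, edgeR adjusted p = 8.03e-06). SKP2 and the proteasome subunit gene PSMD2 were lower on the TMM scale too in both genotypes, where 16.6% and 12.9% of all genes were. DDB1 of the same list was called higher on that scale in wild type (log2 fold change 0.49, edgeR adjusted p = 6.51e-05). Of 6 FOXO and SMAD genes, which activate inhibitor genes, FOXO1 and SMAD2 were lower on the ERCC scale in each genotype, and neither passed the quasi-likelihood test in wild type. FOXO3 was higher on the TMM scale in both, and SMAD3 in ΔLEO1. The Polycomb list held repressors of the INK4 locus and also KDM6B, which is no repressor and removes the Polycomb mark. Of its 8 genes, 4 were lower in wild type and 3 in ΔLEO1 on the ERCC scale, against 36.1% and 47.2% of all genes. CBX8, a subunit that binds methylated histones, came first in each. On the TMM scale 3 genes of this list were higher in each genotype. These were CBX7, EED and BMI1 in wild type and CBX7, BMI1 and KDM6B in ΔLEO1, and CBX8 was lower in ΔLEO1. Of all genes 16% and 16.5% were higher on that scale.

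Between the genotypes these lists gave few calls on the ERCC scale. There 4.64% of all tested genes were called lower and 4.2% higher in 10% serum, and 3.59% and 3.85% in 0.1% serum. Of the 20 repressed targets none was called in 10% or in 0.1% serum in either test, with medians of 0.59 and 0.75, and at an unadjusted p under 0.05, 3 and 6 were higher in the likelihood ratio test. In 10% serum E2F5 was lower (−1.87) and E2F7 higher (1.39) in ΔLEO1, and in 0.1% serum MYBL2 was higher (1.37). The quasi-likelihood test called E2F5 alone of these 3. On the TMM scale 17.7% of all genes were higher and 21.8% lower in ΔLEO1 in 10% serum. Of these lists CBX2, CBX8, CBX7, SMAD3, SKP2, PSMD2 and E2F7 were higher there, and FOXO1, FOXO3, CDK2, TFDP2 and E2F5 lower. In 0.1% serum 15.4% of all genes were higher and 17.6% lower on that scale. There E2F7, PSMD2, SMAD3 and CDC6 were higher, and CDK6, CDC25B, TFDP2, E2F5, DDB1 and FOXO1 lower.

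The genes whose pattern over the 12 libraries lay closest to each brake were found from centered log2 CPM on the TMM scale, by the root mean square difference. TMCC2 and RAB3IL1 were closest to CDKN1A, both with a difference of 0.20, where CDKN1A itself had an SD of 1.00. PDP1 and MOSPD2 were closest to CDKN1B (0.11 and 0.12), COL5A3 and MAFK to CDKN1C (0.44 and 0.45). NRBF2 and LARP6 were closest to CDKN2A (both 0.17), BPGM and POLR1G to CDKN2B (both 0.24), HOXC6 and FAAP24 to CDKN2C (0.15 and 0.16), and PKN3 and MNT to CDKN2D (0.23 and 0.24). GPR180 and MTMR2 were closest to RB1 (0.07 and 0.08), MGME1 and UBR7 to RBL1 (0.12 and 0.13), and NCOA6 and FAM193A to RBL2 (both 0.07, beside an SD of 0.17 of RBL2 itself). None of the nearest genes was itself one of the 10.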

How the data were processed

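Poly(A) RNA of 12 BJ-5ta libraries was measured by RNA-seq, 3 in each of 4 groups named in the labels. Per the labels the authors used bcl2fastq 2.20.0.422, STAR 2.7.10a, featureCounts 1.5.1 and GRCh38. They deposited raw read counts per gene and, in a separate table, raw counts per ERCC spike-in transcript. The Ensembl annotation release and the strand setting are not given in the sources used here.

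Genes over 1 CPM in at least 3 libraries (13236 of 60671) were tested with edgeR 4.0.16 in R 4.3.3 by a likelihood ratio test on the deposited counts, with the ERCC total times its TMM factor as library size, 1 mean per group and Benjamini-Hochberg adjustment. The filter and the normalization to ERCC counts alone follow the study's methods. The quasi-likelihood test, DESeq2 1.42.0, TMM factors on the genes, other filters and fits, and each library left out in turn were alternatives. In simulated data for the wild-type serum comparison, with 12905 genes, 198 of 200 genes changed 4-fold were recovered. The likelihood ratio test called 14 and the quasi-likelihood test 12 of 12707 unchanged genes. The spread between libraries in this simulation is not given here, and recovery at the spread of the 12 libraries was not tested. Intervals are 95%. CPM is per 1000000 gene counts, and CPM per kb divides by the merged exon bases of a GENCODE annotation of GRCh38, which also gave gene coordinates. Figures were drawn with matplotlib 3.10.9.

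The 10 genes and the gene lists were chosen with earlier results of these data known. All 10 genes are named, and from each list up to 3 called genes with the largest absolute log2 fold change. Further list genes in the text were named after their values were seen. The deepest library held 45315560 and the shallowest 26240632 gene counts.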

Additional observations from a re-analysis of the deposited data

Results flagged for a closer look

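The serum response of CDKN1A differed between the genotypes when tested as an interaction on the TMM scale. The difference of the log2 fold changes was 1.15 (SE 0.24, edgeR adjusted p = 2.61e-04), higher in ΔLEO1, and it lay between 1.03 and 1.34 with each of the 12 libraries left out in turn. On the ERCC scale it was 1.06 (SE 0.63, edgeR adjusted p = 1.00), and between 0.63 and 1.35 with each library left out in turn, called in none of these fits.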

How the results depend on the processing

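No paired analysis was possible because no library number is shared between groups. Marking libraries 3, 6, 9 and 12 by a covariate lost the ΔLEO1 serum call of CDKN2C (edgeR adjusted p = 0.0626) and the CDKN2B call in 0.1% serum (edgeR adjusted p = 0.0674). The count of the 10 genes called in wild type across serum was 5, and 2 with TMM, with gene-based DESeq2 size factors and with TMM and the quasi-likelihood test, 9 with TMM without the 4 highest-numbered libraries, 2 at a threshold of 0.01, and 1 (without library 1 or 7) to 7 (without library 12) with each library left out. In ΔLEO1 it was 4, and 7 without the 4 highest-numbered libraries, 2 in a fit to the groups compared, 10 with TMM without those libraries, 2 at 0.01, and 0 (without library 4 or 10) to 7 (without library 12) with each left out. Between genotypes in 10% serum it was 2, and 6 with TMM without the 4 libraries, 1 at 0.01, and 1 to 3 with each left out. In 0.1% serum it was 1, and 0 in the quasi-likelihood test, without a filter, with the highest-numbered library as a covariate, in a fit to the groups compared and at 0.01, 3 with TMM, with DESeq2's size factors and with TMM and the quasi-likelihood test, 2 without the 4 libraries, 8 with TMM without them, and 0 to 2 with each left out. For the interaction it was 0, and 1 with TMM, with DESeq2's size factors and with TMM and the quasi-likelihood test, 3 with TMM without the 4 libraries, and 0 with each left out. The causes were not tested. The share of all genes called is not given for the fits without libraries, so their counts cannot be set against it. Without the 4 highest-numbered libraries only the closest pairs were left (chi-square per gene 3.04 to 12.1).

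Some log2 fold changes of genes changed sign. With TMM, DESeq2's size factors and TMM without the 4 highest-numbered libraries, in that order, the ΔLEO1 serum values were 0.93, 0.93 and 0.87 for CDKN1A, 0.62, 0.62 and 1.16 for CDKN1C, 1.11, 1.11 and 1.21 for CDKN2A, 0.88, 0.87 and 1.33 for CDKN2B, and 0.23, 0.23 and 0.23 for RBL2. In wild type they were 0.88, 0.88 and 0.036 for CDKN1C, 0.60, 0.60 and 0.96 for CDKN2B, 0.19, 0.19 and 0.30 for RBL2, and 0.090 and 0.095 for CDKN2C with the first pair. Between genotypes in 0.1% serum they were −0.045, −0.038 and −0.25 for CDKN1B and −0.093, −0.086 and −0.27 for RBL2, and in 10% serum −0.046, −0.031 and −0.13 for RBL1 and −0.14, −0.12 and −0.20 for RBL2. On the ERCC scale without the 4 libraries the 0.1% values were −0.67 for CDKN1B, −0.045 for CDKN2A, −0.33 for RB1, −0.19 for RBL1 and −0.70 for RBL2.

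With each library left out in turn on the ERCC scale, the values whose sign changed ranged from −0.81 to 0.15 for CDKN1C, −0.12 to 0.36 for CDKN2A and −0.60 to 0.013 for CDKN2B across serum in wild type, and from −0.63 to 0.086 for CDKN1A, −1.08 to 0.25 for CDKN1C and −0.41 to 0.17 for CDKN2A in ΔLEO1. Between genotypes they ranged from −0.58 to 0.094 for CDKN2C, −0.13 to 0.54 for RBL1 and −0.012 to 0.40 for RBL2 in 10% serum, and from −0.65 to 0.86 for CDKN1B, −1.01 to 0.046 for CDKN2C, −0.22 to 1.26 for CDKN2D, −0.16 to 0.93 for RB1, −0.22 to 0.98 for RBL1 and −0.46 to 0.50 for RBL2 in 0.1% serum.

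Over all alternatives, 770 values of single genes kept their direction and their side of the threshold, 65 kept their direction and lost the call, 43 kept their direction and gained a call, and 64 changed sign. The fits with TMM without the 4 highest-numbered libraries, with TMM and the quasi-likelihood test, and with each library left out on the TMM scale were chosen after seeing the data.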
